A study of Mus musculus with 108 samples.

Results

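The promoters of the cytosolic ribosomal protein genes were followed through a reporter screen of open chromatin. The rule took every protein-coding gene of the mouse annotation (GENCODE, mm10) whose symbol is Rpl or Rps with a number, together with Rplp0, Rplp1, Rplp2 and Rpsa, and left out Rps6k genes and symbols that end in l or -ps or hold a dash. It found 81 genes among 21951 protein-coding genes, of which 48 have symbols starting with Rpl (the large, 60S subunit) and 33 with Rps (the small, 40S subunit). The rule works on symbols alone, so Rps19bp1 (a protein that binds RPS19), Rpl7l1, Rpl22l1 and Rps27rt are members although they are not among the standard subunits. Without them, 73 of 77 genes had a listed fragment, with a median of 51.0.

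Ribosomal proteins assemble with ribosomal RNA in the nucleolus, and their genes are transcribed strongly in nearly every growing cell. Their promoters lie in open chromatin, often lack a TATA box and hold sites for factors such as GABP, YY1 and SP1, and their mRNAs start with a run of pyrimidines that couples their translation to growth signals. Loss of 1 copy of several of these genes, RPS19 first among them, causes Diamond-Blackfan anaemia, in which red cell formation fails.

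The screen was done in HM-1 cells, a mouse embryonic stem (ES) cell line. Fragments cut from open chromatin by the Tn5 transposase were cloned in pDONR, moved to the reporter vector pSKB in front of the minimal HSP68 promoter and the Venus-YFP gene, and integrated at the Hprt locus. The cells carried no further treatment or allele in the labels, and were sorted as ES cells, FLK1+ hemangioblasts (HB), first (HE1) and then second (HE2) stage hemogenic endothelium, the endothelium that gives rise to blood, and hematopoietic progenitors (HP). At each of the 5 stages, replicates 1 to 4 have 4 YFP gates (Negative, Low, Medium, High), and replicate 5 has Negative, Low and Medium/High, which gave 95 libraries. A fragment that is itself a promoter was therefore read by what it added to a minimal promoter at a foreign site, in 1 cell line. The lists hold DNA and no RNA, so the stages could not be checked against marker genes.

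Each library is a list of distinct fragments without read counts. A fragment was counted at a gene where its midpoint lay within 1 kb of the gene's annotated start. The promoter lists held 353 to 86062 fragments per library (median 5531), of which 1 to 530 (median 31) lay at ribosomal protein genes. Lists of replicates 1 and 2 held at least 10626 fragments, while the medians of replicates 3, 4 and 5 were 1430, 1248 and 740. Of HE1 Negative 1 and HE1 Medium 2, the smaller list shared 78.4% of its fragments with the other, and for HE1 Negative 3 and HE1 Low 4 this was 83.7%. At the ribosomal protein genes the shared parts were 81.9% and 84.6%. The limma comparisons, shares and recovery that use these 4 libraries are also given without them.

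The upstream sequences found in the most libraries are shown, since they are what stood before the reporter. Each is the fragment found in the most libraries at its gene among fragments of at most 200 bp that lie wholly before the start and overlap no annotated exon, for genes with a promoter in the RefSeq table (61 of 81 genes, GRCm38.p6). They are read in the direction of the gene, and capitals mark GGGCGG on either strand, the core of an SP1 site. The Rps21 fragment (chr2:180257194-180257286, plus strand) was listed in 29 of 95 libraries. Those of Rplp0 (chr5:115559245-115559354) and Rpl37 (chr15:5116250-5116320) were each in 13, that of Rps23 (chr13:90922880-90922953) in 9, and those of Rpl22 (chr4:152325651-152325733), Rpl28 (chr7:4792749-4792824), Rpl18 (chr7:45715225-45715388) and Rps15 (chr10:80292242-80292391) in 8, all on the plus strand.
Rps21: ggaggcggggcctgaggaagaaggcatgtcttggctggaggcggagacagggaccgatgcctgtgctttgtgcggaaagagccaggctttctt
Rplp0: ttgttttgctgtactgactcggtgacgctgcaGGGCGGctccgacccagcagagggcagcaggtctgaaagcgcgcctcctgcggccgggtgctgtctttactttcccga
Rpl37: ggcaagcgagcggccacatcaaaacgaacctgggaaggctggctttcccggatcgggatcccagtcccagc
Rps23: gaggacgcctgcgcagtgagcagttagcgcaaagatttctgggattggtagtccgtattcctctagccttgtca
Rpl22: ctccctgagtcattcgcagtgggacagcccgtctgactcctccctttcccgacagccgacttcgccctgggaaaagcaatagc
Rpl28: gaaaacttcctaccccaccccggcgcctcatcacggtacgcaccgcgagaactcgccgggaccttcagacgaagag
Rpl18: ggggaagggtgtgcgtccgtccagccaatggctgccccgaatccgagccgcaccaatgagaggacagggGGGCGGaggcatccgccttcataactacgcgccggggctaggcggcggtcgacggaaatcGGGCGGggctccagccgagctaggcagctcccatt
Rps15: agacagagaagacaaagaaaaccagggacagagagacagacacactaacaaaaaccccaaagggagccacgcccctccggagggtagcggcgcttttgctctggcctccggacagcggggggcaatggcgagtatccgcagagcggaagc

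These pieces were short, and only those of Rplp0 and Rpl18 held a match to GGGCGG. For Rpl18 the RefSeq start lay 2614 bp from the GENCODE start used here, so its piece may not describe its promoter. Over the 300 bases around the start in RefSeq (250 before and 50 after), 60.7% of the 61 ribosomal protein promoters held GGGCGG on either strand, beside 48.2% of 16522 protein-coding promoters. The core of an ETS site, CCGGAAG, which GABP can bind, was in 23 of the 61 promoters (37.7%), beside 12.3% of all promoters. AAGATGG, the core of a YY1 site, was in 9 (14.8%, beside 6.43%), and TATAAA in 6 (9.84%, beside 12.9%). Of the 61 promoters, 13 (21.3%) had C at the annotated start followed by pyrimidines to at least the fifth base, beside 2.19% of all promoters. Annotated starts are not all exact, and 19 of the 61 RefSeq starts lay within 10 bp of the GENCODE start used for counting. The 23 promoters with CCGGAAG had a median of 58.0 listed fragments and the other 38 a median of 42.0. Their median recovery per promoter was 6.16% and 5.42%, which is not the summed share given for groups below. With and without GGGCGG, the medians of listed fragments were 64.0 and 35.5, and for AAGATGG 37.0 and 53.0. For TATAAA they were 44.0 and 52.0, and for CTTTCC on either strand 40.5 and 55.0. For C and 5 or more pyrimidines at the start they were 64.0 and 44.0. None of these differences was tested.

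The ribosomal protein promoters were widely cloned and widely recovered. Of the 81 genes, 76 (93.8%) had at least 1 fragment in a sorted promoter list, beside 13533 of 21951 protein-coding genes (61.7%), and this number was 76 as well without the 4 HE1 libraries. A ribosomal protein promoter had a median of 49 distinct listed fragments and 688 distinct cloned ones, and a protein-coding promoter had 13 and 342. Among the 13533 protein-coding promoters with a listed fragment the medians were 43 and 704, and 5.34% of their summed cloned fragments were recovered. Summed over the 81 genes, 3704 of 64161 cloned fragments were found again with the same ends, or 5.77% (95% exact binomial interval 5.59% to 5.96%, counting error only), beside 5.15% over all genes, and without the 4 HE1 libraries 5.34% and 4.76%. No ribosomal protein fragment was in a distal list, which follows from the definitions, since the paper's distal sites lie further from a start than the 1 kb window.

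By subunit, the 48 Rpl genes had a median of 52.5 listed fragments, with 5.62% of their summed cloned fragments recovered, and the 33 Rps genes had 43.0 and 6.03%. Other groups of genes that serve translation stood near these values. The 78 mitochondrial ribosomal protein genes had a median of 45.0 listed fragments with 6.25% of the summed cloned fragments recovered. The 21 other genes with pyrimidine starts or roles in translation, had 66.0 with 5.61%, and 23 genes of ribosome assembly in the nucleolus had 59.0 with 5.77%.

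**Figure D1:**
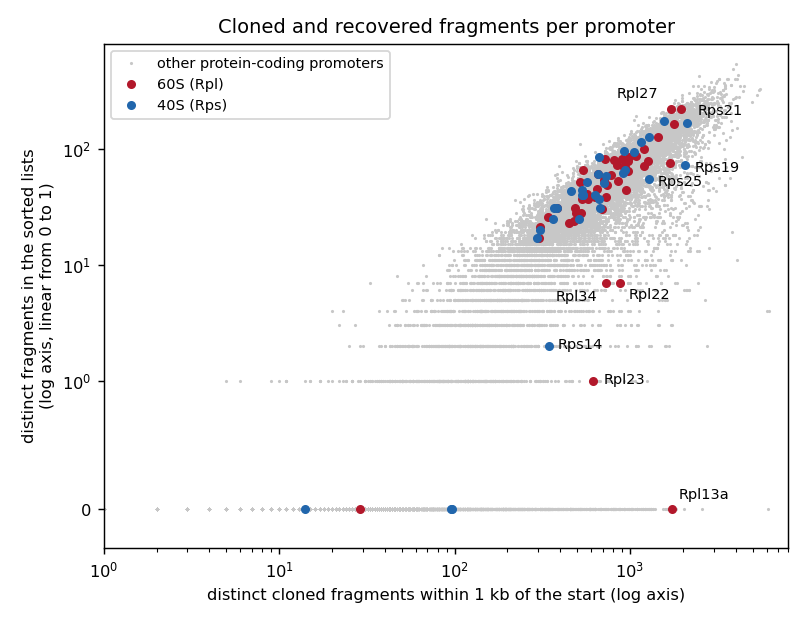
Distinct fragments in the sorted promoter lists (vertical, log axis that is linear from 0 to 1) against distinct cloned fragments in the plasmid lists (horizontal, log axis), 1 point per promoter, with 60S genes red, 40S genes blue and other protein-coding genes grey. The most fragments were listed at Rpl27 (222), and Rpl13a, with 1731 cloned fragments and none listed, lies at the bottom.

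The most fragments were listed at Rpl27 (222), Rpl15 (219), Rps29 (173), Rps21 (168) and Rpl37 (162). These promoters also had many cloned fragments, from 1556 at Rps29 to 2113 at Rps21. Over 77 ribosomal protein promoters with at least 100 cloned fragments, cloned and listed numbers had a Pearson r of 0.75, beside 0.67 over 13880 promoters, and these points share the same libraries. Rps19, the gene first linked to Diamond-Blackfan anaemia, lay low for its cloning, with 2070 cloned and 72 listed fragments, of which 59 were exact (2.85%).

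A few well-cloned promoters were nearly absent from the lists. Rpl13a, which besides its place in the ribosome takes part in silencing of mRNAs in inflammation, had 1731 cloned fragments (462 in pSKB) and none in any sorted list. Its cloned fragments held 7472 pDONR reads and 6452 pSKB reads. Rpl23, a protein that binds MDM2, had 613 cloned and 1 listed fragment, Rps14, the small-subunit gene lost in the 5q- syndrome, 344 and 2, Rpl34 733 and 7, and Rpl22 873 and 7. These were the 5 ribosomal protein promoters with at least 300 cloned fragments and under 1% recovered, 6.58% of 76, beside 5.56% of 11435 protein-coding promoters. The other members without a listed fragment were Rps2, Rps10, Rpl17 and Rps27rt, with 96, 97, 29 and 14 cloned fragments. For Rps2 and Rps10 the RefSeq start lay 1947 and 1425 bp from the start used here. The window of these 2 genes therefore left out the RefSeq start, and their counts may not describe their promoters. The same held for Rps24 and Rpl18, which had listed fragments and RefSeq starts 3553 and 2614 bp away. Rps14 is annotated over chr18:60747098-60778546 and was counted at its outermost start, 60747098. It has no promoter in the RefSeq table, so this start could not be checked, and its counts may not describe its promoter. Rpl13a, Rps2, Rps10, Rpl17 and Rps27rt, the 5 genes without a listed fragment, also had none in replicates 1 and 2 alone. This held without the 4 HE1 libraries, or where any overlap with the window was enough.

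The genes linked to Diamond-Blackfan anaemia, listed together with Rps14, had 0 to 72 listed fragments, where the 81 genes had 0 to 222. The large-subunit genes Rpl5 and Rpl11, whose proteins bind MDM2 together with 5S RNA, had 54 and 59 listed fragments and recoveries of 5.88% and 5.89%, and Rpl35a had 24 and 4.61%. Of the small-subunit genes, Rps7 had 40 fragments (6.65%), Rps26 31 (6.22%) and Rps24 20 (5.23%). The RefSeq start of Rps24 lay 3553 bp from the start used here, outside its window. The Polr3a start lay 67 bp away on the opposite strand, and fragments there count for both genes. The Rps24 counts, like those of Rps10 and Rps14, may therefore not describe its promoter. Over the 10 genes of this list, which also holds Rps10, Rps14 and Rps19, there was a median of 35.5 listed fragments.

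Listed fragments at these genes lay close to the start. Of 4183 distinct fragments from YFP-positive gates, 82.4% had their midpoint within 250 bp of the start and 42.0% covered it, beside 71.6% and 35.6% of the fragments at all protein-coding starts. The 1704 fragments from Negative gates had the same shape, with 83.1% within 250 bp and 42.8% covering the start. Among cloned fragments the shares were lower, 64.8% and 35.4% at ribosomal protein genes and 55.3% and 30.0% at all genes. Median lengths were 201 bp in positive gates, 206 bp in Negative gates and 235 bp in the plasmid lists. Of the 81 genes, 15 (18.5%) had another protein-coding start within 1 kb, all of them on the opposite strand, beside 10.9% of all genes with an opposite start there. In Rps28 and Ndufa7 the starts were 10 bp apart, and fragments there count for both genes.

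**Figure D2:**
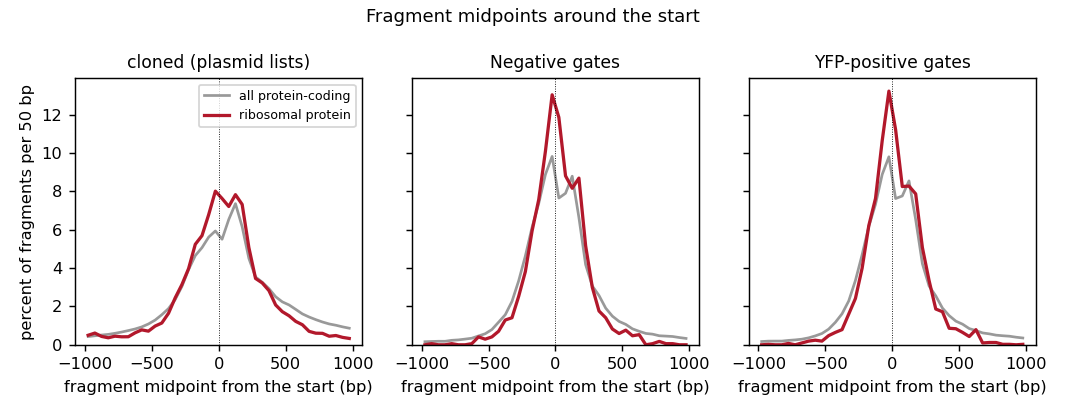
Distance of fragment midpoints from the annotated start (bp, in the direction of the gene) against the percent of fragments per 50 bp, for the cloned, Negative and YFP-positive lists, with ribosomal protein genes in red and all protein-coding genes in grey. The red peak is the higher at the start in all 3 panels, and positive and Negative gates have nearly the same profile.

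Most fragments were rare and some came back in many libraries. Of 4636 fragments at ribosomal protein genes, 2434 (52.5%) were in 1 library only, beside 54.4% of 781185 fragments in all promoter lists, and 43 (0.93%, beside 0.88%) were in 10 or more. Of the 4636, 79.9% were identical to a plasmid fragment (79.1% of all) and 18 to a fragment amplified from HM-1 cells without a reporter library (0.39%, beside 0.33%).

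Some recurrent fragments were shared mostly by libraries of 1 or 2 replicates. The Rps21 fragment printed above was in 5 of 25 Negative and 24 of 70 positive libraries, at all 5 stages, of replicates 1 to 4. A Rpl9 fragment over the start (chr5:65391414-65391614) was in 18 of 20 libraries of replicate 4 and 3 of replicate 3, and in no other library. A Rpl41 fragment (chr10:128549114-128549242) was in 13 libraries of replicate 4 and 3 of replicate 3. In contrast, a Rpl15 fragment (chr14:18271281-18271484) was in 9 libraries each of replicates 1 and 2, and a Rps13 fragment (chr7:116333901-116334110) in 9 and 7. A Rps27a fragment (chr11:29548107-29548406), from the gene that makes ubiquitin fused to S27a, was in 11 of 15 libraries of replicate 5 and 10 of replicates 1 and 2. Of the 43 fragments in 10 or more libraries, 28 (65.1%) were in replicates 1 and 2 only, beside 63.7% of 6908 such fragments in all promoter lists, and 1 was in all 5 replicates. Replicates 1 and 2 hold the large lists. For 2 of the 43 (4.65%, beside 5.27% in all promoter lists), at least 4 of every 5 libraries were of 1 replicate. Both shares of the members are near those of all promoter lists. How the libraries of a replicate came to share fragments was not tested.

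**Figure D3:**
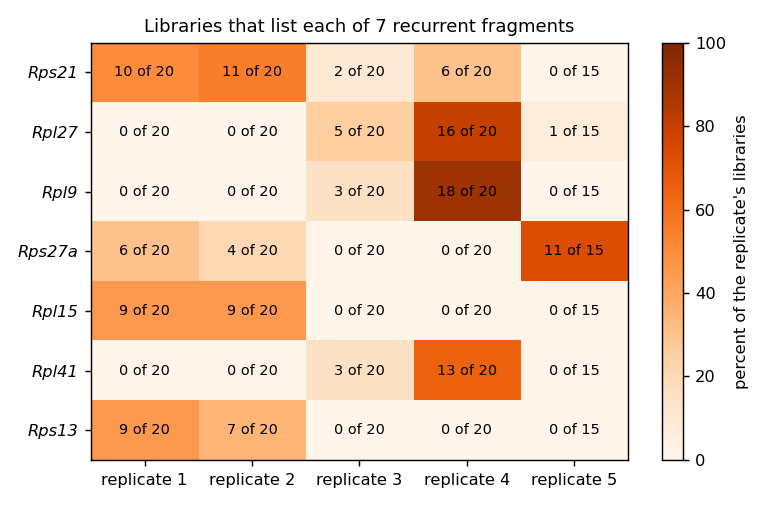
Number of libraries of each replicate that list the fragment, for 7 ribosomal protein fragments found in 16 to 29 libraries, with colour as the percent of that replicate's libraries. The Rpl27, Rpl9 and Rpl41 fragments are mostly in replicate 4, while those of Rpl15 and Rps13 are in replicates 1 and 2 only.

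The comparison of YFP-positive with Negative cells asks whether these promoters were found more often where the reporter was on. The shares of the lists that they took overlapped between both. A positive set is the union of the positive gates of a replicate. In replicates 1 and 2, which hold the large lists, the ribosomal protein share of promoter fragments was 0.562% to 0.633% in positive sets and 0.571% to 0.669% in Negative sets. Over 5 replicates, the positive and Negative shares were 0.777% ± 0.207 and 0.577% ± 0.076 in ES (SD, n = 5), 0.619% ± 0.080 and 0.620% ± 0.184 in HB, and 0.612% ± 0.123 and 0.561% ± 0.062 in HE1. They were 0.645% ± 0.130 and 0.565% ± 0.155 in HE2, and 0.727% ± 0.236 and 0.734% ± 0.252 in HP. The positive share was higher in 4 of 5 replicates in ES, 3 in HE1 and HE2 and 2 in HB and HP. Without the 4 HE1 libraries, the HE1 shares were 0.621% (5 replicates) and 0.567% (3 replicates). In ES, replicates 1 and 2 alone gave 0.614% and 0.616%. These summed shares were not tested. In the plasmid lists the share, here of fragments at any protein-coding start, was 0.482% to 0.580% in pDONR and 0.469% to 0.563% in pSKB. By the same measure the positive lists of the 5 stages had 0.581% to 0.630% and the Negative lists 0.604% to 0.636%.

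**Figure D4:**
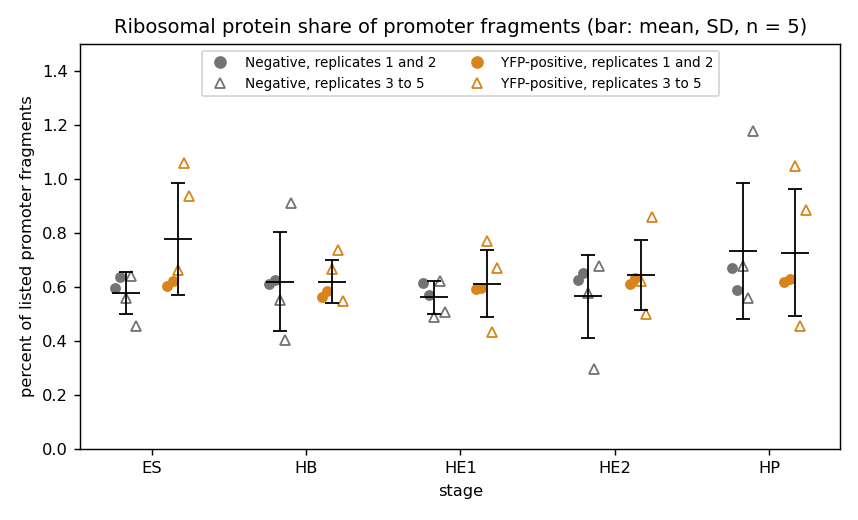
Percent of listed promoter fragments at ribosomal protein genes by stage, for Negative (grey) and YFP-positive (orange) sets, with circles for replicates 1 and 2, triangles for replicates 3 to 5 and bars for mean and SD (n = 5). The circles of both colours lie between 0.562% and 0.669%, and the triangles spread more widely.

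No ribosomal protein promoter differed between positive and Negative sets at any of the 5 stages (limma on log2 of fragments per 10000 promoter fragments with 1 added, adjusted p at most 0.05). A promoter was tested where 4 or more sets held a fragment of it, which left 59 members for ES, 62 for HB, 61 for HE1, 57 for HE2 and 55 for HP. The background was 0% of 7782 to 9671 promoters, so no promoter of any kind passed. By edgeR on the numbers of fragments, 0 passed as well. At an unadjusted p under 0.05 limma had 2 members in ES (of 147 promoters), 1 in HB (of 119) and none in HE1, HE2 and HP. The median log2 difference of the members tested ran from 0.01 in HE1 to 0.20 in HE2, and that of all promoters tested from -0.01 in HP to 0.17 in HE2. Without the 4 HE1 libraries, 25 members could be tested in HE1 and 0 passed, and the HE1 medians were 0.48 for the members and 0.49 for all promoters tested, the highest of the 5 stages. Depth limits this comparison, since 1 fragment is worth 0.0667 per 10000 in the largest set and 19.2 in the smallest.

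Several single promoters had differences above their standard errors, and none passed the adjusted test. Rps27a was 1 of the 2 members at an unadjusted p under 0.05 in ES, with a log2 difference of 1.37 (SE 0.60, adjusted p = 1.00 by limma). Rpl27 had 25, 26, 6, 4 and 0 fragments in the ES positive sets of replicates 1 to 5, and 2, 14, 0, 0 and 0 in the Negative sets. It was present in 4 of 5 positive and 2 of 5 Negative sets there, and its log2 difference was 1.25 (SE 0.74). In HP it was 1.17 (SE 0.88). The mean over the 5 stages was highest for Rpl27 (0.80), Rpl28 (0.70) and Rps29 (0.58), and among the lowest for Rps13 (-0.20) and Rplp2 (-0.17), over the 40 members tested at all stages. For Rpl28 the HB sets held 6, 8, 3, 1 and 1 fragments in positive and 2, 2, 0, 0 and 0 in Negative cells, with a log2 difference of 1.27 (SE 0.64). For Rps13 the HP sets held 18, 10, 0, 0 and 1 fragments in positive and 8, 6, 0, 1 and 2 in Negative cells, with a log2 difference of -1.10 (SE 0.87). In ES the difference of Rps13 had the opposite sign, at 0.79 (SE 0.74). In each of these the adjusted p was 1.00 (limma).

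Positive sets are larger than Negative sets, so detection is compared at equal size. When 500 promoter fragments were drawn from each set, 3.23 ± 0.72 of the 81 genes were expected to have a fragment in positive sets (SD over 25 sets, 3.99% of the genes) and 2.92 ± 0.72 in Negative sets (3.61%). Over all protein-coding genes this was 2.17% and 2.15%. Without drawing, 74 genes were in more positive than Negative sets, of 25 each, and 2 in as many. The medians were 13 positive and 10 Negative sets for the members, and 13 and 9 for all promoters with a listed fragment.

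The acidic proteins of the ribosomal stalk, Rplp0, Rplp1 and Rplp2, which recruit translation factors to the large subunit, and Rpsa, a small-subunit protein also known as the laminin receptor, were followed in each set. Rpsa had 52 listed fragments and was in 17 of 25 positive and 12 of 25 Negative sets. Its fragments over replicates 1 to 5 were 5, 5, 0, 0 and 1 in ES positive sets, 3, 8, 3, 1 and 0 in HB, 16, 4, 0, 1 and 1 in HE1, 8, 6, 0, 0 and 1 in HE2, and 7, 2, 2, 0 and 0 in HP. The large replicates 1 and 2 carried most of them at each stage, and the stages overlap. Rplp0 had 44 fragments, Rplp1 84 and Rplp2 69, in 13, 14 and 14 positive and 8, 13 and 12 Negative sets. In ES, Rplp2 had 6, 3, 2, 1 and 0 fragments in positive and 5, 5, 3, 0 and 0 in Negative sets, which overlap. Rplp0 had only 2.73% of its 951 cloned fragments recovered. Among the members whose levels were most like those of Rpsa over the 25 positive sets were Rps27a (Pearson r = 0.54) and Rpl14 (0.50), and these levels share the depth of each set.

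Promoters listed in many positive sets were not always those with most fragments. Rps27a was in 23 of 25 positive and 17 of 25 Negative sets with 62 fragments, Rpl27 in 22 and 16 with 222, and Rpl9 in 21 and 14 with 80. Of the 81 genes, 4 were in 20 or more positive sets, and the recurrent fragments of Rps27a, Rpl27 and Rpl9 are described above.

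Within positive cells, the stronger gates (Medium, High and Medium/High) were compared with Low. No ribosomal protein promoter differed at any stage, of 42 (HP) to 62 (HE1) tested, with a background of 0% of 5772 to 8918 promoters (limma), and edgeR gave 0 as well. At an unadjusted p under 0.05 there was 1 member, Rpl27 in HE1, at a log2 difference of 2.00 (SE 0.95, adjusted p = 1.00). Over all 14 limma comparisons of gates and stages, 8 of 850 member tests (0.941%) reached that level, beside 1377 of 128067 tests (1.08%). Without the 4 HE1 libraries no member of 56 tested in HE1 reached that level, and none passed. The ribosomal protein share was 0.823% ± 0.299 in the stronger gates and 0.791% ± 0.246 in Low in ES (SD, n = 5), 0.594% ± 0.111 and 0.599% ± 0.085 in HB, and 0.639% ± 0.161 and 0.572% ± 0.198 in HE1. Without the 4 libraries the HE1 shares were 0.647% ± 0.159 (n = 5) and 0.609% ± 0.208 (n = 4). In HE2 it was 0.718% ± 0.156 and 0.636% ± 0.236, and in HP 0.755% ± 0.235 and 0.739% ± 0.197. All 5 differences are smaller than the SD over replicates. Leaving the Medium lists out gave 0 calls as well.

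Positive sets of adjacent stages were compared next. Of the 76 listed genes, 68 had a fragment at all 5 stages, and the share of all listed promoters that did was not counted. Among promoters with at least 30 listed fragments, 4.92% of the members lacked a stage, beside 3.67% of protein-coding promoters. Limma called none of 68 to 73 members in any of the 4 steps, with a background of 0.0188% of 10657 promoters from ES to HB (2 promoters) and 0% in the later steps. At an unadjusted p under 0.05 it had 3 members from ES to HB (of 269 promoters), 1 from HB to HE1 (of 234) and none later. By edgeR, 3 members passed from ES to HB, with a background of 0.995% (106 of 10657), and 1 from HB to HE1, with a background of 0.772% (84 of 10887). In the last 2 steps, to HE2 and to HP, edgeR called 0 members, with backgrounds of 0.0636% and 0.514%. By edgeR, Rps25 and Rps19bp1 fell from ES to HB and Rpl36 rose. Each edgeR call of a member was of a promoter that met the filter of 4 sets only through the stage where it was high. Without the 4 HE1 libraries limma called 0 members in both steps that involve HE1, with 2 members at an unadjusted p under 0.05 from HB to HE1 and none from HE1 to HE2.

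Rps25, a small-subunit protein known for its part in translation from internal entry sites, was in the lists of 3 stages and in none at HB and HP. Its ES positive sets held 8, 11, 4, 1 and 0 fragments, those of HE1 13, 8, 0, 3 and 0, and those of HE2 10, 5, 3, 0 and 0. All 5 positive sets of HB and of HP held 0, and so did their Negative sets. In HB that is 0 of 216380 distinct promoter fragments, which allows a share of up to 0.00139%, and in HP 0 of 199175, which allows 0.00151%. Over the positive sets, Rps25 in ES was 9.13-fold higher than a floor of 3 fragments over the HB sets. This ratio and those for Rps19bp1 and Rpl36 below take the fragments of the higher stage as exact. Their counting error and the spread between replicates are left out. By edgeR the fall from ES to HB had an adjusted p of 2.4e-05, and by limma the log2 difference was -1.14 (SE 0.43, adjusted p = 1.00). Rps25 met the filter for both tests only through its ES sets, so these p-values are no separate support for the fall.

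Rps19bp1, whose protein also regulates SIRT1, had the same 2 empty stages. It had 4, 6, 4, 1 and 0 fragments in ES positive sets and 15, 8, 1, 0 and 1 in HE1, and 0 in every HB and HP set, Negative sets included. Against the same floor in HB, its level was 5.71-fold higher in ES and 5.83-fold higher in HE1. By edgeR these 2 steps had an adjusted p of 0.00057 and 0.00043. By limma the log2 differences were -0.97 (SE 0.38) and 1.33 (SE 0.51), with adjusted p of 1.00 and 0.999, and the latter difference was 1.34 without the 4 HE1 libraries. Rps19bp1 too met the filter only through the ES or HE1 sets, so these p-values are no separate support.

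Rpl36, a large-subunit protein, was empty at ES instead. It had 2, 4, 2, 1 and 1 fragments in the HB positive sets and 7, 7, 1, 2 and 0 in HE1, and 0 in all ES positive and Negative sets. Against the same floor in ES, HB was 2.92-fold higher. The rise had an adjusted p of 0.037 by edgeR and a log2 difference of 1.32 (SE 0.47, adjusted p = 1.00) by limma. Rpl36 met the filter only through its HB sets, so these p-values are no separate support either. Rpl8 (28 fragments in all) and Rps4x, the X-linked S4 gene (17 fragments), had none in ES either.

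Each of these promoters had been cloned from the stage at which it was missing. Rps25 had 231 pDONR and 80 pSKB fragments from HB and 292 and 48 from HP, Rps19bp1 91 and 29 from HB and 185 and 48 from HP, and Rpl36 95 and 34 from ES. Negative and positive sets of such a stage were both empty by the way these genes were picked, which asked for no fragment in any gate. Among promoters with at least 30 listed fragments, 3 of 61 ribosomal protein promoters (4.92%) had a stage with none, beside 312 of 8504 protein-coding promoters (3.67%). The lists were limited by the authors to open chromatin peaks, and the sources used here do not say whether this was done for each stage alone. Its part in the empty stages was not tested.

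**Figure D5:**
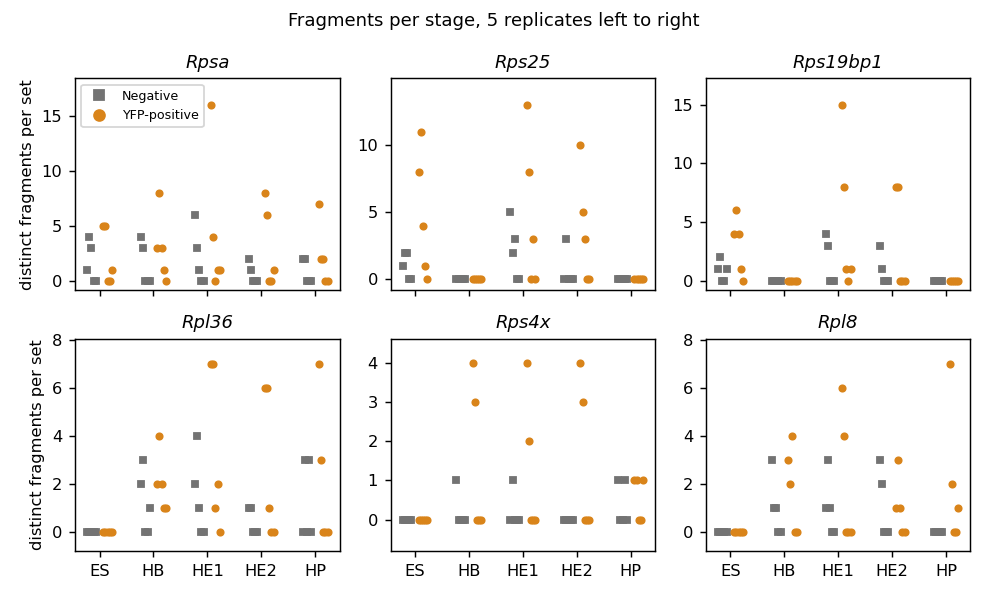
Distinct fragments per set (vertical) by stage for Rpsa and the 5 ribosomal protein genes with at least 10 fragments and an empty stage, with Negative sets as grey squares and YFP-positive sets as orange circles, and replicates 1 to 5 from left to right. Rps25 and Rps19bp1 are at 0 in all HB and HP sets, and Rpl36, Rps4x and Rpl8 in all ES sets.

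The transfer from pDONR to the reporter vector could have altered which promoters entered the cells, so reads of both were compared with the stage as a block. Of 79 ribosomal protein promoters tested, 0 passed (edgeR, 5 lists each, adjusted p at most 0.05), with a background of 0% of 16179 promoters. At an unadjusted p under 0.05 there were 4 members of 1093 promoters, and DESeq2 called 0 members of 7 promoters. The median log2 difference (pSKB over pDONR) was -0.02 for the members and -0.06 for all promoters tested. Of these 4, Rps27 had a log2 difference of 0.88 and Rpl5 of -0.77, with adjusted p of 0.715 and 0.727. All 81 genes had a fragment in every pDONR list, and 80 or 81 in each pSKB list.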

How the data were processed

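Fragments recovered from sorted HM-1 reporter cells (95 libraries), from 5 pDONR and 5 pSKB plasmid preparations and from 3 HM-1 control amplifications were analysed. The authors amplified inserts by 25 to 30 PCR cycles, trimmed the reads with Trim Galore, mapped them to mm10 with Bowtie2, kept pairs of high mapping quality, wrote them as intervals with bedtools and removed duplicates and, per the methods, control fragments. They kept plasmid fragments and limited the lists to open chromatin peaks. Sorted lists were deposited as intervals without counts or another unit (start and end positions). Plasmid and control lists were deposited with whole-number read counts per fragment, not normalized. Molecular identifiers are not given in the sources used here, so intervals cover counting error only.

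Sorted starts were 1 bp higher than plasmid starts, and all were set to a scale from 1. Stage, gate and replicate came from the labels. The labels do not say that replicates came from separate differentiations, so p-values measure the spread between these samples. Fragments with a midpoint within 1 kb of a GENCODE M21 gene start (GRCm38) were counted. A fragment near 2 starts counted for both. Reads from exons that have copies in pseudogenes may map to several places, so counts there are uncertain. Distinct fragments per 10000 promoter fragments, with 1 added, were compared on the log2 scale by limma 3.58.1 (lmFit, eBayes with trend), for promoters with a fragment in at least 4 sets, with Benjamini-Hochberg adjustment over all promoters tested and a threshold of 0.05. Read counts of plasmid lists were compared by edgeR 4.0.16 (quasi-likelihood, stage as a block). Tests were checked on simulated data. Motifs and sequences came from RefSeq promoters and the GRCm38.p6 genome.

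Members and lists were chosen with earlier results of these data known. Named genes were Rpsa, the stalk genes, the members with most and fewest fragments, members past a threshold, the 3 highest and 3 lowest mean differences of positive from Negative sets, Diamond-Blackfan anaemia genes, and the 3 most like Rpsa. Some genes that this rule takes are not reported here. Genes with an empty stage were named after their values were seen. Replicate numbers paired the sets (all 5 correlations of same-numbered deviations above 0.1) in 3 of 14 comparisons, positive with Negative in ES (0.11 to 0.31) and in HB (0.11 to 0.31) and HB with ES (0.13 to 0.32). Alternatives were another added value, filter, denominator, window or start, control fragments left out, plasmid-identical fragments only, edgeR or DESeq2, a replicate block, each replicate left out, and other gates.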

Additional observations from a re-analysis of the deposited data

Results flagged for a closer look

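Of 22 groups of 5 values, 2 held a set that stood apart from the others by Dixon's criterion, which chance alone meets in about 1 group in 20. The ribosomal protein share of promoter fragments was 0.296% in the HE2 Negative set of replicate 4 (3 of 1014 fragments), and 0.577% to 0.676% in the other 4 sets. In HP, the Negative set of replicate 5 had 1.18% (7 of 595 fragments), and the other 4 sets had 0.560% to 0.676%. Both are small lists.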

How the results depend on the processing

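No ribosomal protein promoter was called by limma under any alternative run, each replicate left out included. Differences that did not pass could change sign, as that of Rplp2 in ES (-0.16, from -1.09 to 0.17 over 16 alternatives, 13 of the same sign). By edgeR 3 members passed from ES to HB (106 promoters in all) and 1 from HB to HE1 (84 in all), while 7 promoters passed in the step to HE2 and 52 in that to HP, none of them members. The cause of the difference between the tools was not tested. With the replicate block, the 2 promoters called from ES to HB became 0, and the block changed no other call. Leaving out 1 replicate gave 0 to 17 promoters from ES to HB, with 17 without replicate 5, and 0 to 1 from HB to HE1. From HB to HE1, 1 promoter passed with a fragment in at least 1 set, within 500 bp, or with plasmid-identical fragments only. Between pSKB and pDONR, DESeq2 called 7 promoters, no filter 3 and distinct fragments 2, with no member among them. As a share of all listed fragments, the ribosomal protein genes held 0.434% in ES Negative, 0.433% in HB positive, 0.421% and 0.388% in HE1 positive and Negative, and 0.436% and 0.383% in HE2 positive and Negative sets. Recovery was 16.9% where both ends could differ by 5 bp, 11.6% of pSKB fragments, and 5.34% without the 4 HE1 libraries. With 5000 fragments drawn, 22.5 members were expected in positive and 22.2 in Negative sets. Leaving out the 4 HE1 libraries for shares, recovery and listing, and using replicates 1 and 2 alone, were chosen after seeing the data. The small lists of replicates 3 to 5 limit all tests, since a promoter there rests on a few fragments.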
